A study of Mus musculus with 140 samples.

Results

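Small RNA libraries of whole kidney were compared between mice 72 h and mice 24 h after a sham operation. The 4 libraries at 72 h and the 4 libraries at 24 h were chosen by their labels (whole kidney, sham operation, time) and make up 8 of the 140 libraries of the study. All 28 mice of the study were wild-type males of the C57BL6/OlaHsd strain, and their ages are not given in the labels. Each mouse gave 1 whole kidney library, which was not microdissected, and 4 libraries of laser-microdissected vessel segments, namely glomeruli, arterioles, post-capillary venules and peritubular capillaries. The groups used here are sham at 72 h and sham at 24 h, with CLP at 72 h and CLP at 24 h for comparison (cecal ligation and puncture, an operation that releases gut bacteria into the abdomen). CLP and sham at 4 h and healthy controls at 0 h complete the 7 groups of 4 mice each. The study asked how microRNAs of the kidney vessels respond to sepsis, and sham mice serve as its controls at each time. Different mice were sampled at each time, so no mouse was followed over time.

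MicroRNAs (miRNAs) are short RNAs that guide Argonaute proteins to messenger RNAs and lower their stability or translation. Target choice rests mainly on the seed, the bases from position 2 to position 8 counted from the 5′ end, so miRNAs with the same seed form a family. The let-7 family is the best known such family in animals: it is abundant in differentiated tissue, and its maturation is blocked by LIN28 proteins in embryonic cells. The kidney expresses many let-7 genes from separate chromosomes, and a whole kidney library mixes tubule, vessel, stroma and blood cells. Fewer cells of a type and less miRNA per cell cannot be told apart in such bulk libraries.

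The results turn on the sequences of the let-7 5p strands and of 4 further miRNAs. The mature sequences are given 5′ to 3′ from RefSeq for the build GRCm38.p6, with the seed in capitals, so that the few bases by which the let-7 members differ can be seen.
let-7b-5p: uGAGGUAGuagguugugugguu
let-7c-5p: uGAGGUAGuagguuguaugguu
let-7a-5p: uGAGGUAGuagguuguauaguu
let-7d-5p: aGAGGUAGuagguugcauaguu
let-7e-5p: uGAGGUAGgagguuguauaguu
let-7f-5p: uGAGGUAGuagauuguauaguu
let-7g-5p: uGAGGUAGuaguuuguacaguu
let-7i-5p: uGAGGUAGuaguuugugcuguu
miR-98-5p: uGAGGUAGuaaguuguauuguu
miR-744-5p: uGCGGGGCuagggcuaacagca
miR-455-3p: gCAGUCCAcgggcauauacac
miR-1247-5p: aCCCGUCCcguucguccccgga
miR-139-5p: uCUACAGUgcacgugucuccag

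The seed GAGGUAG is shared by the first 9 of these and occurs in 11 of the 1247 miRNAs of the table that have a RefSeq sequence. Relative to let-7a-5p, counted from position 1 at the 5′ end, let-7c-5p carries A19G and let-7b-5p carries A17G and A19G. let-7b-5p is read from chr15:85707325-85707346 and let-7c-5p from chr15:85706616-85706637, both on the plus strand within exons of the non-coding RNA gene Lncppara (GENCODE M21). A further copy of let-7c-5p lies at chr16:77599672-77599693, in an intron of the non-coding gene Mir99ahg. miR-744-5p (chr11:65734799-65734820, minus strand) lies in an intron of Map2k4, miR-455-3p (chr4:63256904-63256924, plus strand) in an intron of Col27a1, and miR-139-5p (chr7:101475382-101475403, plus strand) in an intron of Pde2a. miR-1247-5p (chr12:110278094-110278115, minus strand) lies in an exon of the non-coding gene Dio3os, at the imprinted Dlk1-Dio3 locus.

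The libraries held 4868820 to 5386554 miRNA counts at 72 h and 3147306 to 6330856 at 24 h, and the difference in depth was smaller than the spread between mice (two-sided exact permutation test, p = 0.8). With such depths a miRNA without a count is bounded at 0.474 to 0.953 CPM (counts scaled to a common library size of 1e+06 miRNA reads), which is 3 counts and covers counting error only. All values of a pair of libraries correlated closely across the 542 tested miRNAs, with Pearson's r on log2 CPM of 0.9878 to 0.9924 within 72 h, 0.9884 to 0.9926 within 24 h and 0.9834 to 0.9918 between the times. These are correlations across miRNAs of one tissue, which are not independent replicates. One quantity outside the miRNAs differed between the times. The table has 10 entries marked with # in place of a miRNA name, and they took 2.32%, 1.94%, 1.77% and 2.16% of all counts at 72 h, against 1.32%, 1.59%, 1.65% and 1.60% at 24 h. Every share at 72 h was above every share at 24 h, and the exact permutation p was 0.0286, the smallest that 4 against 4 libraries can give. Their content is not stated in the labels. Some results below are also given scaled to these entries, and beyond that their part in the results was not tested.

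In sham whole kidney, 6 miRNAs were lower at 72 h than at 24 h and 0 were higher, by edgeR's quasi-likelihood test with Benjamini-Hochberg adjustment over 542 tested miRNAs. The 6 made up 1.11% of those tested, and their mean at 72 h was between 44.7% and 64.7% of the mean at 24 h. They were let-7b-5p, let-7c-5p, miR-744-5p, miR-455-3p, miR-1247-5p and miR-139-5p, and none of the 6 overlapped between the times. Over all 542, 52 (9.59%) had every value at 72 h below every value at 24 h, and 11 (2.03%) had every value above. At an unadjusted p under 0.05, 64 (11.8%) were lower and 19 (3.51%) higher. The number of calls changed when single libraries were left out and the filter and scaling were computed anew. With any 1 of replicates 1, 2 or 4 of 72 h left out, 0 miRNAs passed, and without replicate 3 of 72 h there were 4. At 24 h, leaving out replicate 1, 2, 3 or 4 left 1, 4, 3 or 2 calls. With the spread taken from the 16 whole kidney libraries of 24 h and 72 h there were 12 calls, 2 of them higher, and with only the 8 compared libraries 10 calls, 1 of them higher; both sets contained the 6. Scaled to the # entries instead of the miRNA counts, the median over all miRNAs was -0.41 on the log2 scale, beside -0.06. Then 4 passed, which were the 6 without miR-455-3p (log2 fold change -1.16, edgeR adjusted p = 0.0571) and miR-139-5p (-0.96, 0.147). The median of -0.06, and the shares below 0 given further on, belong to the main fit and depend on the scaling. The median was 0.02 with RLE scaling, 0.004 with plain library size and 0.02 with only the 8 compared libraries.

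**Figure D1:**
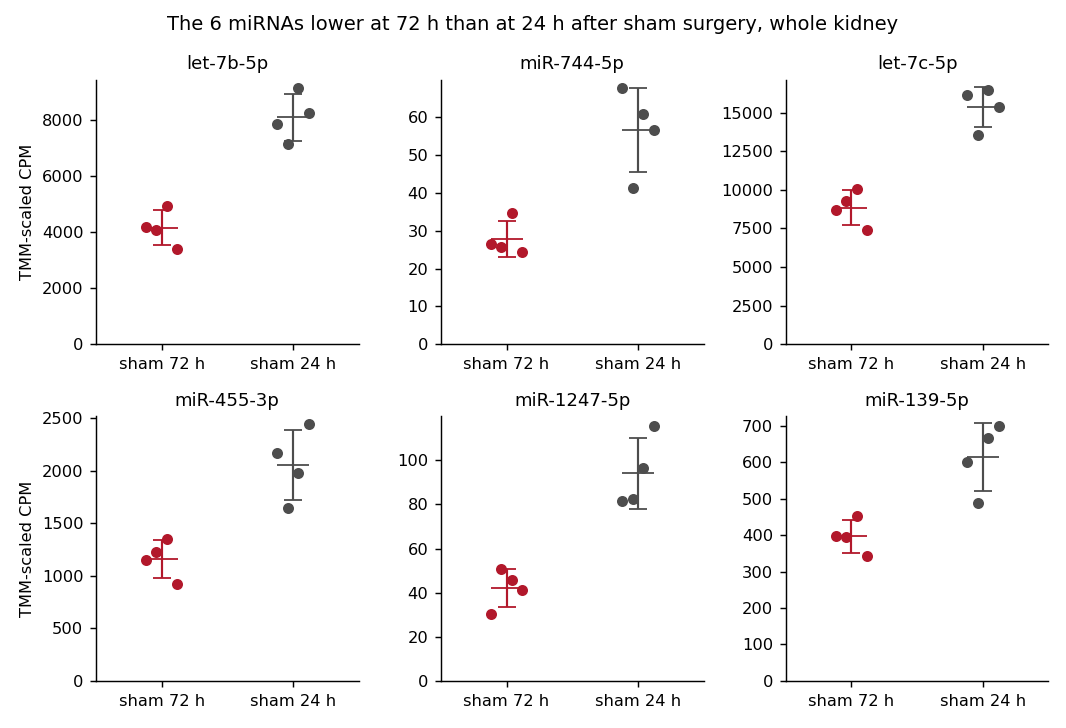
TMM-scaled CPM of the 6 miRNAs past the threshold, in the 4 sham 72 h libraries (left in each panel) and the 4 sham 24 h libraries (right). Each point is 1 mouse, and the bars give mean ± SD. In each panel all 4 points at 72 h lie below all 4 points at 24 h.

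let-7b-5p and miR-744-5p shared the smallest adjusted p. let-7b-5p stood at 4172, 4079, 4942 and 3409 CPM in sham 72 h kidneys, against 7850, 7123, 9145 and 8240 CPM in sham 24 h kidneys. The highest kidney at 72 h was well below the lowest at 24 h. The means were 4150 ± 628 CPM at 72 h and 8090 ± 842 CPM at 24 h (SD, n = 4 each), which on the log2 scale is a fold change of -0.96 with a standard error of 0.17 and an adjusted p of 0.00177 (edgeR).

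let-7c-5p, which differs from let-7b-5p by a single base, was about as clearly separated. Its values were 8711, 9272, 10049 and 7369 CPM at 72 h, against 16114, 13562, 16449 and 15384 CPM at 24 h. Its mean was 8850 ± 1130 CPM at 72 h and 15377 ± 1289 CPM at 24 h (SD, n = 4 each), and its log2 fold change was -0.80 (SE 0.16, adjusted p = 0.00489 by edgeR). Reads that match several miRNAs may have been counted for each. The 3p strands let-7a-1-3p and let-7c-2-3p, which have the same sequence, both averaged 206 CPM at 72 h and 191 CPM at 24 h. Being identical, these 3p strands do not show how reads of let-7b-5p and let-7c-5p, a single base apart, were counted. The ratio of let-7b-5p to let-7c-5p was 0.44 to 0.492 at 72 h and 0.487 to 0.556 at 24 h, so the pair did not keep a fixed ratio. Whether they are independent measurements cannot be told from the counts.

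The other let-7 5p strands fell into separated and overlapping members. let-7a-5p stood at 1573, 1638, 1682 and 1298 CPM at 72 h, against 2715, 2437, 2501 and 2324 CPM at 24 h. let-7d-5p had 285, 273, 330 and 249 CPM at 72 h, against 485, 412, 521 and 354 CPM at 24 h. let-7e-5p had 943, 953, 936 and 793 CPM at 72 h, against 1546, 1230, 1488 and 1279 CPM at 24 h. All 3 had every 72 h value below every 24 h value, yet did not pass the threshold: their log2 fold changes were -0.69, -0.64 and -0.61, with adjusted p of 0.150, 0.0870 and 0.219 (edgeR).

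The other 4 of the 9 printed let-7 strands, among them the abundant let-7f-5p and let-7i-5p, did not share this separation. let-7f-5p had 18762, 19736, 20564 and 16256 CPM at 72 h, against 17784, 21394, 20524 and 14894 CPM at 24 h. let-7i-5p averaged 14973 CPM at 72 h and 16263 CPM at 24 h. let-7g-5p averaged 2750 CPM at 72 h and 3051 CPM at 24 h, and miR-98-5p 1103 CPM at 72 h and 986 CPM at 24 h. The values of these 4 overlapped between the times, with log2 fold changes of 0.01, -0.12, -0.15 and 0.16 and adjusted p of at least 0.781 (edgeR). The summed level of the 9 strands was 54347, 55284, 59492 and 44457 CPM at 72 h, against 65003, 67008, 72721 and 62223 CPM at 24 h. These TMM-scaled sums did not overlap, but as plain shares of miRNA counts they did, with 4.62% to 6.17% at 72 h and 6.05% to 6.88% at 24 h. Of the 22 let-7 family names in the table, 3p strands included, 19 were tested, 2 were called lower and 8 had an unadjusted p under 0.05 and were lower, beside 1.11% and 11.8% of all tested miRNAs. Their median log2 fold change was -0.15, beside -0.06 over all tested miRNAs.

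**Figure D2:**
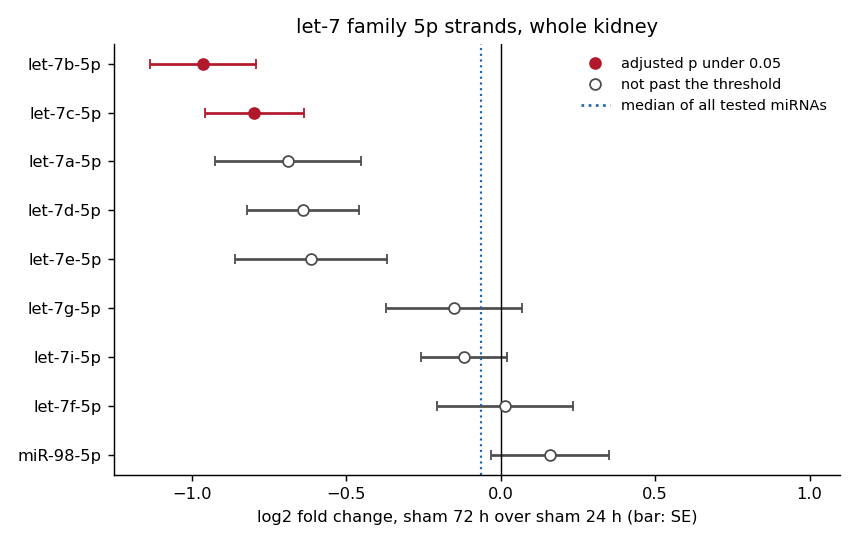
Log2 fold change of the 9 let-7 5p strands, sham 72 h over sham 24 h, with its standard error. Filled points passed the threshold (let-7b-5p and let-7c-5p); let-7a-5p, let-7d-5p and let-7e-5p lie between -0.69 and -0.61, and the other 4 lie near the dotted median of all 542 tested miRNAs.

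The printed sequences show where the separated and the overlapping members part. let-7a-5p, let-7b-5p, let-7c-5p, let-7d-5p and let-7e-5p have the bases GG at positions 11 and 12. let-7f-5p carries G12A relative to let-7a-5p, let-7g-5p and let-7i-5p carry G12U, and miR-98-5p carries G11A. This split was noticed after the values were seen, so it is a description of 9 related sequences and carries no test. The same 5 members include neighbours that are 1 base apart, whose reads may be shared: let-7a-5p has 3 of the other 8 within 1 base (let-7c-5p, let-7e-5p and let-7f-5p). let-7a-1, let-7d and let-7f-1 lie together on chromosome 13 within the non-coding gene 6720427I07Rik. let-7f-5p has a further copy on chromosome X. The strand name let-7a-2-3p shows a further let-7a precursor too, whose position is not given here. The values of let-7f-5p overlapped between the times, and those of let-7a-5p and let-7d-5p did not. The counts of let-7a-5p and let-7f-5p cannot be split by copy.

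miR-744-5p, made from an intron of the kinase gene Map2k4, was a low-abundance member of the called set. It stood at 26.4, 25.6, 34.8 and 24.3 CPM at 72 h, against 67.6, 41.3, 60.8 and 56.5 CPM at 24 h. Its log2 fold change was -1.02 (SE 0.19, edgeR adjusted p = 0.00177). The other strand of the same precursor, miR-744-3p, averaged 10.4 CPM at 72 h and 9.18 CPM at 24 h and did not pass (log2 fold change 0.17, SE 0.28).

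miR-455-3p, encoded in the collagen gene Col27a1, had 1150, 1223, 1347 and 922 CPM at 72 h, against 2162, 1643, 1972 and 2439 CPM at 24 h. Its log2 fold change was -0.82 (SE 0.17, edgeR adjusted p = 0.00536). The 5p strand of its precursor had overlapping values of 267 to 335 CPM at 72 h and 263 to 397 CPM at 24 h, with a log2 fold change of -0.05 (SE 0.19). The difference between the strands was not tested.

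miR-1247-5p had the largest fold difference of the 6. Its values were 30.3, 50.7, 45.9 and 41.1 CPM at 72 h, against 81.7, 82.5, 96.4 and 116 CPM at 24 h, and its log2 fold change was -1.16 (SE 0.28, adjusted p = 0.0251 by edgeR). miR-139-5p, from an intron of the phosphodiesterase gene Pde2a, had 398, 395, 454 and 342 CPM at 72 h, against 602, 489, 667 and 701 CPM at 24 h. Its log2 fold change was -0.63 (SE 0.16, edgeR adjusted p = 0.0434), the closest of the 6 to the threshold. Here the other strand pointed the same way: miR-139-3p had 27.6, 26.5, 31.8 and 32.0 CPM at 72 h, against 36.7, 50.6, 61.4 and 41.7 CPM at 24 h, but did not pass (log2 fold change -0.69, adjusted p = 0.0870). miR-1247-5p and miR-139-5p were past the threshold in none of the 8 fits that left out 1 library.

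The uncalled miRNAs nearest to the threshold were miR-486a-3p, miR-139-3p and let-7d-5p, each at an adjusted p of 0.0870. miR-214-3p, a miRNA of mesenchymal cells, miR-674-5p and miR-17-5p, a member of the proliferation-linked 17-92 cluster, followed at 0.0982. The nearest one with a higher mean at 72 h was miR-136-5p of the Dlk1-Dio3 cluster, at 1.96, 4.24, 2.85 and 5.14 CPM at 72 h, against 1.43, 0.556, 0.672 and 1.3 CPM at 24 h (adjusted p = 0.108). Its values did not overlap but rest on few counts.

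Base composition moved with the time difference. Of the 542 tested miRNAs, 460 (84.9%) had a RefSeq sequence, with a median GC content of 50%. Their median log2 fold change between 72 h and 24 h was 0.10 for the 70 miRNAs below 40% GC, -0.15 for the 108 between 50% and 55%, and -0.24 for the 85 at 60% or above. Across the 460 miRNAs the fold change and GC content had Pearson's r of -0.24 and Spearman's rho of -0.35, and across the 172 with a mean of at least 100 CPM, -0.38 and -0.43. These miRNAs share the same 8 libraries, so the coefficients are descriptions only. In the CLP mice the same coefficients for 72 h over 24 h were 0.13 and 0.16 over all 460, and 0.44 and 0.47 over the 172, of the opposite sign to sham. After a smooth GC curve was removed from each library, 3 miRNAs passed: let-7b-5p (log2 fold change -0.94, adjusted p = 0.00571), let-7c-5p (-0.83, 0.0115) and miR-744-5p (-0.79, 0.0115). miR-455-3p then stood at -0.65 (adjusted p = 0.0563), miR-1247-5p at -0.87 (0.115) and miR-139-5p at -0.49 (0.116). On the same 460 miRNAs without the correction 5 passed, all of the 6 except miR-139-5p, and these 3 stood at -0.75, -1.08 and -0.55.

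**Figure D3:**
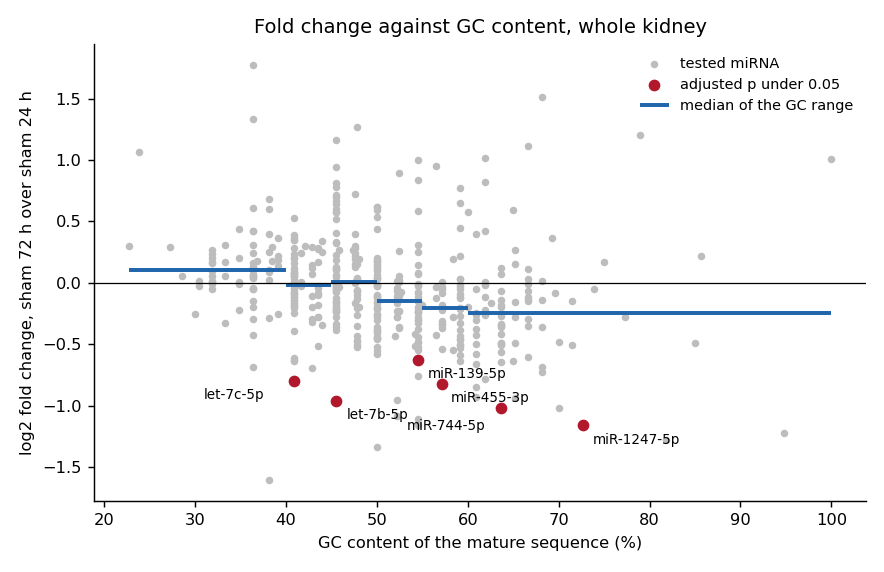
Log2 fold change (sham 72 h over sham 24 h) against the GC content of the mature sequence, for the 460 tested miRNAs with a RefSeq sequence. Grey points are miRNAs, red points the 6 past the threshold, and blue lines the median in each GC range, which runs from 0.10 below 40% GC to -0.24 at 60% or above.

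In the miRNA lists for tissues, families and clusters, no tested member passed the threshold other than let-7b-5p and let-7c-5p. The miR-200 family, which keeps epithelial cells epithelial, had 9 tested members: 3 had an unadjusted p under 0.05 and were lower, and 4 had non-overlapping lower values, beside backgrounds of 11.8% and 9.59%. miR-200c-3p had 3512, 3697, 3746 and 2858 CPM at 72 h, against 5028, 4134, 4454 and 6064 CPM at 24 h. The family's median log2 fold change was -0.29, while miR-429-3p, from the cluster of miR-200a and miR-200b, stood at 11041 CPM at 72 h and 10990 CPM at 24 h.

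The 37 tested miRNAs listed for the imprinted Dlk1-Dio3 cluster, known for expression in embryo, placenta, brain and mesenchyme, had differences mostly above 0. Their median log2 fold change was 0.58 and 31 of 37 were above 0, whereas 325 of all 542 tested miRNAs (60%) were below 0. Of the 37, 8 had an unadjusted p under 0.05, all higher, beside 3.51% of all tested miRNAs. None of the 37 passed the adjusted threshold. The list does not hold miR-1247-5p, which lies at the same locus and was called lower (log2 fold change -1.16). The listed miRNAs summed to 610 to 1200 CPM at 72 h and 461 to 832 CPM at 24 h, ranges that overlap. miR-434-3p, 1 of its better measured members, averaged 50.6 ± 13.2 CPM at 72 h and 33.3 ± 14.2 CPM at 24 h (SD, n = 4 each). Its log2 fold change for 72 h over 24 h was 0.60 in sham mice and 0.23 in CLP mice. Most of the 37 were above 0 in CLP mice too, so this direction is not particular to sham. Members of a cluster are not independent observations. When the sham comparison was scaled to the # entries, the median of the list was 0.20 and that of all miRNAs -0.41.

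Among the 17 tested members of the 17-92 cluster and its paralogs, 4 had an unadjusted p under 0.05 and were lower, beside 11.8% of all tested miRNAs, and the median was -0.20. Members of the cluster, which differ in seed and in GC content, had mean differences of either sign. miR-92a-3p averaged 20333 CPM at 72 h and 25214 CPM at 24 h, with every 72 h value below every 24 h value. miR-19b-3p averaged 5352 CPM at 72 h and 4148 CPM at 24 h, and miR-19a-3p 313 CPM at 72 h and 231 CPM at 24 h, both with every value at 72 h above every value at 24 h. Non-overlapping lower values were found in 9.59% of all tested miRNAs and higher ones in 2.03%. None of the 3 passed (adjusted p of 0.435, 0.334 and 0.388, edgeR). With the spread from the 16 libraries of 24 h and 72 h, miR-19b-3p did pass, at a log2 fold change of 0.45 and an adjusted p of 0.0210. Scaled to the # entries, the log2 fold changes were -0.65 for miR-92a-3p, 0.03 for miR-19b-3p and 0.11 for miR-19a-3p. The GC contents of the 3, in this order, are 57%, 39% and 35%. After the GC correction their log2 fold changes were -0.14, 0.32 and 0.35, and none of the 3 passed.

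Markers of blood were read beside these values. Of the 7 erythroid miRNAs, 6 had a log2 fold change below 0, beside 325 of all 542 tested miRNAs (60%). The median of the 7, which is the value of miR-486a-5p, was -0.40, beside -0.06 over all. With RLE scaling 5 of the 7 were below 0, and the median was -0.32, beside 0.02 over all. In 3 of the 7, every value at 72 h lay below every value at 24 h, beside 9.59% of all tested miRNAs. These 3 were miR-486a-5p, miR-486b-5p and miR-486a-3p, all strands of miR-486. The log2 fold changes of miR-144-3p, miR-144-5p and miR-451a were -0.26, -0.02 and 0.06. At an unadjusted p under 0.05, 1 of the 7 was lower, beside 11.8%. This was miR-486a-3p, at 30.6 ± 6.3 CPM at 72 h and 55.8 ± 11.4 CPM at 24 h (SD, n = 4 each, edgeR adjusted p = 0.0870). miR-486a-5p had 3014, 3146, 3051 and 3797 CPM at 72 h, against 4686, 4051, 4071 and 4408 CPM at 24 h; its copy miR-486b-5p has nearly the same counts. miR-451a, abundant in erythrocytes, averaged 2553 ± 168 CPM at 72 h and 2440 ± 634 CPM at 24 h (SD, n = 4 each). The erythroid sum was 9015 to 10456 CPM at 72 h and 9590 to 13430 CPM at 24 h. The 6 leukocyte miRNAs summed to 1232 to 1784 CPM at 72 h and 1278 to 2046 CPM at 24 h, with 0 at an unadjusted p under 0.05. The part of blood cells in the lower miRNAs was not tested.

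Levels of miRNAs known from renal tubules, vessels and other tissues were read at both times. Both groups are whole kidney, so these values do not check that label. miR-192-5p, abundant in proximal tubules, averaged 9822 ± 1375 CPM at 72 h and 7974 ± 1337 CPM at 24 h (SD, n = 4 each). The other 4 of the 5 tested tubular miRNAs had log2 fold changes below 0, beside 325 of all 542 tested miRNAs (60%). The median of the 5 was -0.16, beside -0.06 over all, and 0 passed the threshold. The lowest was miR-215-5p at -1.61 (unadjusted p = 0.0239 by edgeR, adjusted p = 0.238), which had 12.7, 10.4, 8.18 and 5.54 CPM at 72 h, against 88.2, 6.67, 10.7 and 6.50 CPM at 24 h. Its values overlapped, and 1 library at 24 h held most of its counts. The 11 listed endothelial miRNAs summed to 106710 to 117540 CPM at 72 h and 102830 to 109250 CPM at 24 h. The 9 tested ones had a median log2 fold change of 0.02 (-0.34 when scaled to the # entries). Smooth muscle miRNAs summed to 50351 to 65115 CPM at 72 h and 41344 to 63853 CPM at 24 h. The 3 pancreatic miRNAs summed to at most 0.822 CPM at 72 h and 0.847 CPM at 24 h. Other lists from outside the kidney were well above that. The striated muscle list summed to 296 to 615 CPM at 72 h and 236 to 468 CPM at 24 h. The neuroendocrine list summed to 1858 to 2212 CPM at 72 h and 1866 to 2086 CPM at 24 h. Most of the striated muscle sum was miR-133a-3p, which averaged 390 CPM at 72 h and 350 CPM at 24 h. The other tested members of that list were low: miR-1a-3p averaged 4.95 CPM at 72 h and 5.89 CPM at 24 h, and miR-133b-3p 2.88 CPM and 2.96 CPM. Its remaining members, among them miR-206-3p and miR-499-5p, were not tested. In the neuroendocrine list, miR-9-5p averaged 1336 CPM at 72 h and 1338 CPM at 24 h. The liver miRNA miR-122-5p was at 0, 3.00, 45.9 and 0 CPM at 72 h, against 1.02, 6.49, 2.69 and 0.650 CPM at 24 h, so 1 library at 72 h held most of it. Of the 5 most abundant miRNAs 0 passed: miR-26a-5p took 7.98% ± 0.478 of miRNA counts at 72 h and 7.66% ± 0.145 at 24 h, and miR-143-3p 4.70% and 4.29%.

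miRNAs known from kidney injury and inflammation did not pass. miR-21a-5p, which rises in injured tubules in many models, averaged 23436 ± 1606 CPM at 72 h and 24153 ± 6085 CPM at 24 h (SD, n = 4 each). Of the 8 tested miRNAs of the injury and fibrosis list, miR-132-3p and miR-214-3p had an unadjusted p under 0.05, both lower, beside 11.8% of all tested miRNAs. miR-214-3p stood at 413, 349, 470 and 327 CPM at 72 h, against 638, 457, 543 and 578 CPM at 24 h, with 1 value at 72 h above the lowest at 24 h. The inflammation miRNAs miR-146a-5p and miR-155-5p had log2 fold changes of 0.05 and -0.22 with overlapping values.

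**Figure D4:**
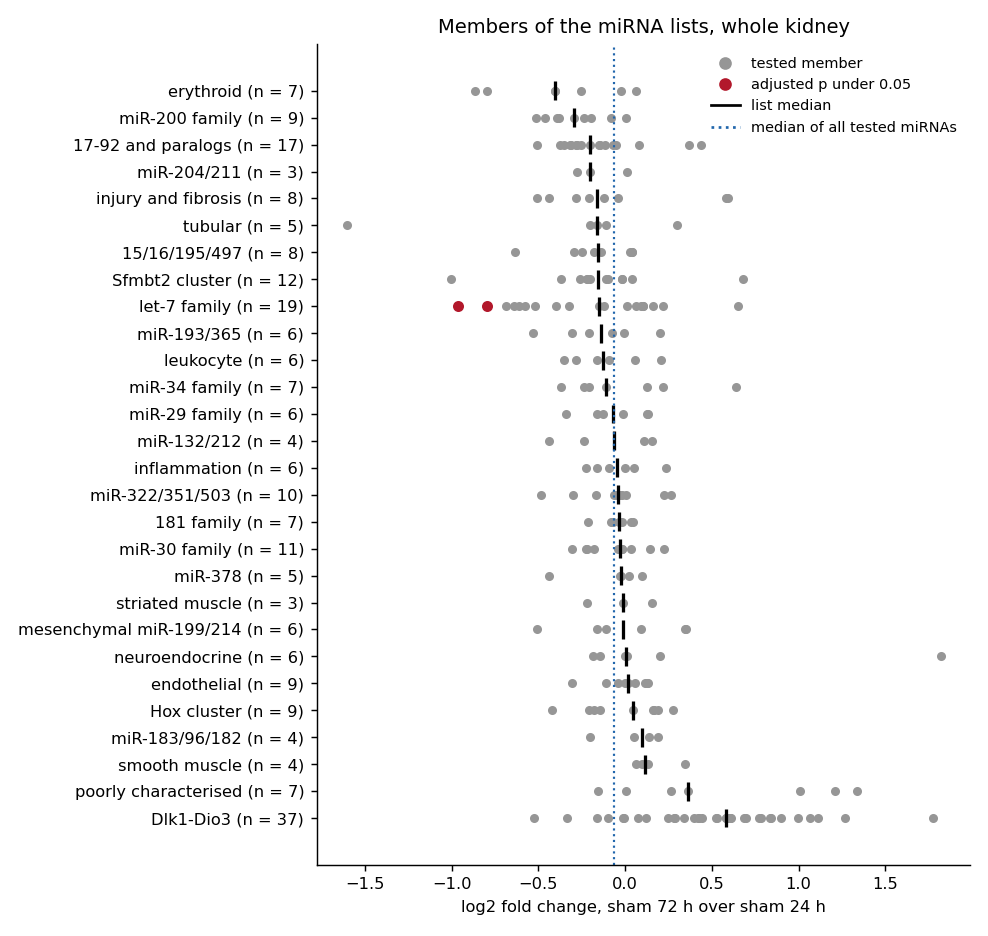
Log2 fold change (sham 72 h over sham 24 h) of the tested members of each miRNA list with at least 3 of them, ordered by the list's median (black line). Red points are the 2 list members past the threshold, let-7b-5p and let-7c-5p, and the dotted line is the median of all 542 tested miRNAs; the lists range from a median of -0.40 (erythroid) to 0.58 (Dlk1-Dio3).

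The CLP kidneys of the same 2 times were set beside the sham kidneys. By edgeR, 0 miRNAs differed between CLP 72 h and CLP 24 h at an adjusted p under 0.05, with 7 lower and 13 higher at an unadjusted p under 0.05. The 6 had log2 fold changes between -0.27 and 0.00. The test of the difference between the sham and the CLP change found 0 of 542 miRNAs past the threshold, with 31 lower (5.72%) and 4 higher (0.738%) at an unadjusted p under 0.05. For the 6, the change in sham minus the change in CLP lay between -0.89 (miR-1247-5p) and -0.60 (let-7c-5p), with unadjusted p of 0.00292 to 0.0269 and adjusted p of 0.418 to 0.656 (edgeR). The 6 were picked by their change in sham, which is part of this contrast, so that choice favours small unadjusted p for them. With 0 past the adjusted threshold, the change in sham mice is not shown to differ from that in CLP mice. let-7b-5p averaged 5655 ± 895 CPM in CLP kidneys at 72 h and 6419 ± 873 CPM in CLP kidneys at 24 h (SD, n = 4 each). Across the 542 miRNAs the sham and CLP fold changes had Pearson's r of 0.29 and Spearman's rho of 0.17, as a description.

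Levels of the 6 in CLP and sham kidneys at 72 h are given as ranges over 4 mice. miR-455-3p had 1884 to 2133 CPM in CLP 72 h kidneys and 922 to 1347 CPM in sham 72 h kidneys. miR-1247-5p had 97.9 to 132 CPM in CLP 72 h kidneys and 30.3 to 50.7 CPM in sham 72 h kidneys, and miR-139-5p 562 to 701 CPM in CLP 72 h kidneys and 342 to 454 CPM in sham 72 h kidneys. These 3 did not overlap, while let-7b-5p (4825 to 6614 CPM in CLP, 3409 to 4942 CPM in sham) and let-7c-5p (9917 to 14002 CPM in CLP, 7369 to 10049 CPM in sham) did. miR-744-5p had 34.810 to 48.6 CPM in CLP 72 h kidneys and 24.3 to 34.821 CPM in sham 72 h kidneys, which overlap narrowly. Over all 542 miRNAs, 36 (6.64%) had every CLP value above every sham value at 72 h and 24 (4.43%) every CLP value below. Both comparisons share the same 4 sham 72 h libraries, in which the 6 were picked as low.

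All 7 groups of whole kidney can be put in order of time, with the limit that the healthy and 4 h mice belong to another library set (a dot in the column name) than the 24 h and 72 h mice, so set and time cannot be told apart across that border. let-7b-5p averaged 2692 CPM in healthy mice, 2056 CPM in CLP and 2386 CPM in sham at 4 h, 6419 CPM in CLP and 8090 CPM in sham at 24 h, and 5655 CPM in CLP and 4150 CPM in sham at 72 h. miR-139-5p averaged 264 CPM in healthy mice, 284 CPM in sham at 4 h, 615 CPM in sham at 24 h and 397 CPM in sham at 72 h. miR-455-3p averaged 1160 CPM in sham at 72 h and 1957 to 2366 CPM in the other 6 groups. The mean of miR-744-5p was also lowest in sham at 72 h, at 27.8 CPM, beside 45.5 CPM in CLP and 56.6 CPM in sham at 24 h and 45.5 CPM in healthy mice.

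**Figure D5:**
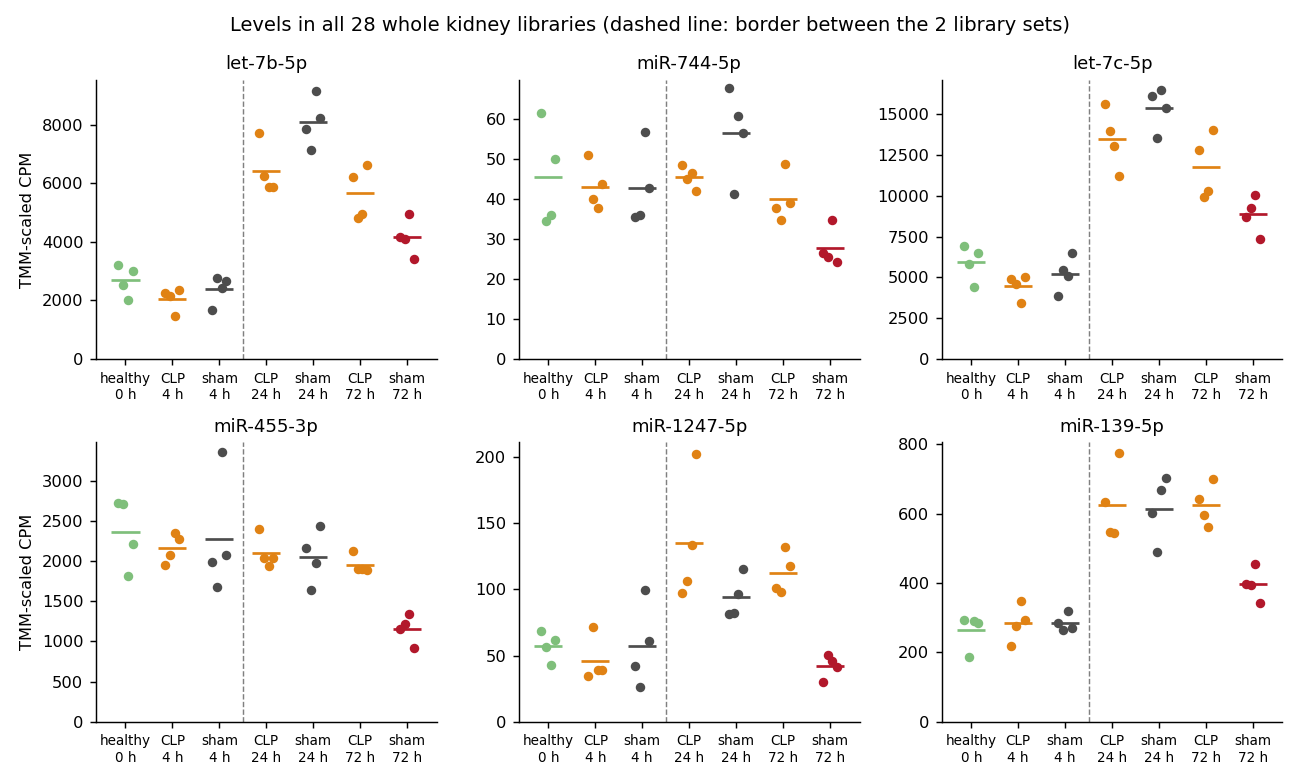
TMM-scaled CPM of the 6 miRNAs in all 28 whole kidney libraries, by group in order of time, each point a mouse and each line a mean of 4 mice. The dashed line separates the 2 library sets; for miR-455-3p and miR-744-5p the sham 72 h mean, at 1160 and 27.8 CPM, is the lowest of the 7 group means.

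The microdissected vessel segments of the same mice gave no call. In the mean over 4 compartments per mouse, 0 of 383 tested miRNAs differed between sham 72 h and sham 24 h (limma on log2 CPM), with 6 lower (1.57%) and 4 higher (1.04%) at an unadjusted p under 0.05. let-7b-5p differed by -0.02 on the log2 scale, with a 95% interval of -0.48 to 0.44, and let-7c-5p by -0.04, with an interval of -0.35 to 0.26. Both intervals leave out the whole kidney values of -0.96 and -0.80; the difference between whole kidney and vessel segments itself was not tested. miR-744-5p differed by -0.04 (interval -0.56 to 0.47), miR-455-3p by -0.24 (-0.62 to 0.15) and miR-139-5p by -0.31 (-1.26 to 0.63). miR-1247-5p had the largest difference of the 6 in the vessel segments, at -0.83 with an interval of -1.81 to 0.14. It was 1.86 log2 units lower at 72 h in glomeruli by group means, at 5.41 ± 1.53 log2 CPM at 72 h and 7.27 ± 0.77 log2 CPM at 24 h (SD, n = 4 each), but 0.88 units higher in peritubular capillaries. The compartments of a mouse share that mouse, and tests within single compartments were not made.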

How the data were processed

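The authors deposited a single table of unnormalized read counts for each mature miRNA in each library. Per the labels' protocols, libraries were made with a RealSeq kit. Per the submitters' processing notes, reads were handled with cutadapt 3.3, Bowtie 1.3.0, MultiQC 1.10 and FastQC 0.11.9 and the builds GRCm38.p6 and GRCm39; how mismatches and reads that match several miRNAs were treated, and which tool counted them, is not given there. All 140 columns matched a sample by name. The table has 1474 miRNAs and 10 # entries, which entered neither library sizes nor tests.

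edgeR 4.0.16 (R 4.3.3; TMM scaling, filterByExpr with minimum count 10 and total 15, quasi-likelihood F test) was fitted to the 28 whole kidney libraries, so that the 7 groups share 1 estimate of the spread. Sham 72 h against sham 24 h, and that change in sham minus that in CLP, were tested two-sided with Benjamini-Hochberg adjustment over 542 miRNAs and a threshold of 0.05. For vessel segments, limma 3.58.1 (robust, with trend) was fitted to log2 CPM (prior count 2) averaged per mouse. Means are of TMM-scaled CPM; list sums are plain shares of miRNA counts, and the let-7 5p sum is TMM-scaled. The count test was tested on simulated data first. The replicate is the mouse, called biological in the labels.

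The members, the 31 miRNA lists and the tests were chosen with earlier results of these data known. Named miRNAs were up to 12 in each direction past the threshold, the 5 most abundant and list members; those nearest the threshold, the opposite strands and the let-7 bases were added after their values were seen. Alternatives were DESeq2 1.42.0, RLE or plain scaling, other filters, prior count 0.5, limma, fewer libraries for the spread, the replicate number as a block and leaving out each replicate; scaling to the # entries, a GC correction (loess, span 0.75) and the restriction to miRNAs with a sequence were added after seeing the data. Whether same-numbered replicates deviate together was checked, and the numbers were not taken as pairs.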

Additional observations from a re-analysis of the deposited data

Results flagged for a closer look

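Gaps within groups of 4 mice were examined for 40 groups of values, where chance flags about 1 in 20, and 2 lay past Dixon's critical value. For let-7e-5p in sham 72 h kidneys, 1 mouse stood at 793 CPM while the other 3 were at 936 to 953 CPM, a gap of 0.889 of the group's range. For miR-98-5p in sham 24 h kidneys, 1 mouse stood at 1102 CPM while the other 3 were at 945 to 951 CPM, a gap of 0.965 of the range. Neither miRNA passed the threshold between the times.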

How the results depend on the processing

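The 6 miRNAs were lower at 72 h under all 21 alternatives run, and 0 results changed direction while past the threshold. let-7b-5p passed in 18 of the 21, with adjusted p of 8.27e-06 to 0.0594 and log2 fold changes of -1.29 to -0.80. miR-744-5p passed in 17, let-7c-5p in 15, miR-455-3p in 14, miR-1247-5p in 9 and miR-139-5p in 6.

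The count of calls was 15 with no filter on low counts (7 higher and 8 lower, 5 of them shared with the 6), 12 with the spread from the 16 libraries of 24 h and 72 h, 10 with the 8 compared libraries only and 3 with the GC correction. Leaving out 1 replicate gave 0 to 4 calls. DESeq2, limma and a prior count of 0.5 each gave 6, and RLE scaling, plain library size, a mean of at least 10 CPM and scaling to the # entries each gave 4. The sham change minus the CLP change gave 2 calls with no filter, 1 with the 16 libraries and 0 in the other 14 of its 16 alternatives, DESeq2 included; it was not run with limma, the 8 libraries, the # scaling, the GC correction or the restriction to miRNAs with a sequence. The vessel segments gave 0 calls under every alternative run.

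Replicate numbers were not taken to pair the mice: same-numbered deviations correlated at -0.05 to 0.14, and 3 of 8 libraries correlated best with their own number. With the replicate block, the calls numbered 6, 0 for the sham against CLP difference and 0 for the vessel segments. The cause of these changes in the count was not tested. Leaving out a replicate leaves fewer samples, and it also changed the set of tested miRNAs and the scaling. In these fits the median log2 fold change over all miRNAs was 0.005 to 0.040, beside -0.0644 in the main fit. Depth limits miRNAs near 1 CPM and the many Dlk1-Dio3 members below 10 CPM.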
